A study of Mus musculus with 21 samples.

Results

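The sixth week of repeated UV exposure was compared with unexposed skin on the backs of Hos:HR-1 mice, which are albino and hairless. By the sample titles, 3 arrays belong to UV week 6 and 3 to control week 1, which makes 6 of the 21 arrays of the series, and all 45101 probe sets of the arrays were read. All mice were females that arrived at 6 weeks of age and were kept for 1 week before the experiment, and the Methods give 3 animals per group. The mice of UV week 6 were irradiated 3 times per week with a lamp emitting 275 to 380 nm and peaking at 310 to 315 nm. A filter in front of the lamp removed the UVC wavelengths. Their dose was raised by 1 minimal erythema dose (MED, 100 mJ per square centimetre) each week until 4 MED and was then held, so that the sixth week lay within the period of constant dose. The mice of control week 1 were not irradiated and were sampled earlier, and the mice of control week 8 were not irradiated and were sampled later. No unexposed group of week 6 exists in the labels, so exposure and time cannot be told apart against control week 1 alone, and the values against control week 8 are given beside them. UV weeks 4 and 8, with 3 arrays each, were used to ask where week 6 differs from its neighbours.

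Skin is built of a stratified epidermis over a collagen-rich dermis. UVB is absorbed largely in the epidermis, where it damages DNA and where repeated exposure is known to thicken the tissue and to alter the keratins that its cells make. Fibroblasts of the dermis secrete collagens, proteoglycans and growth factor binding proteins, and photoaged skin is known for the loss of this matrix and for wrinkles. Whole dorsal skin also holds hair follicles, sebaceous glands, fat, a sheet of striated muscle, vessels and immune cells, so a lower signal can come from fewer cells of a type or from less RNA per cell, which cannot be told apart here.

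The arrays are Affymetrix whole-genome mouse arrays, on which a gene is read by 1 or several sets of short probes. The deposited values are linear intensities between 4.35 and 35056, with array medians between 30.1 and 33.3. They were log2 transformed, so that a difference of 1 is a 2-fold change, and a change is the mean of UV week 6 minus the mean of the control group, given with the standard error (SE) and the adjusted p of limma (n = 3 arrays per group). Where several probe sets read a gene, the one with the highest mean stands for it. Other probe sets are given for a part of the genes only, so silence about them does not mean that they moved alike. Single values are given in the order of the arrays, 12, 13 and 16 for control week 1 and 441, 443 and 445 for UV week 6. Across probe sets the arrays of control week 1 correlated with one another at 0.981 to 0.994 and those of UV week 6 at 0.981 to 0.988. Krt10, a keratin of the suprabasal epidermis, lay at 14.18 to 14.45 on the control arrays and at 14.30 to 14.43 on the UV arrays, and Col3a1, a collagen of the dermis, lay at 13.87 or above on all 6, which fits the labelled tissue. The beta-actin 3'/5' log2 ratio, which is higher in more degraded RNA, was 4.743, 2.555 and 2.367 on the control arrays and 4.124, 2.359 and 5.108 on the UV arrays. Its part in the results was not tested beyond the alternatives named below, and where a change is given "on the arrays with a ratio of at most 4", it sets array 443 alone against arrays 13 and 16.

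Skin of the sixth week had more probe sets called down than up. A probe set was called at a change of at least 2-fold with an adjusted p of at most 0.05, unless the 2 control groups were 1.5-fold or more apart there. Of 40540 probe sets tested, 620 were called down (1.53%) and 176 up (0.434%), which correspond to 489 and 136 genes. Without control array 13 the counts were 144 and 106, and without control array 12 they were 1000 and 232. Leaving out array 16 or array 445 also lowered the count of probe sets called down, to 381 and 280. With no minimum fold and no exclusion, 1331 of 17403 genes were lower (7.65%) and 920 were higher (5.29%). With control week 8 as the baseline, 779 genes were lower (4.48%) and 438 higher (2.52%). These shares are the background for all list counts below, and a count near them is no result about the list. The same direction past the test against both controls was found for 547 genes that were lower and 282 that were higher, and no gene passed in opposite directions. The counts depended on single arrays across the whole table. With no minimum fold, the 2553 probe sets that were lower became 527 without array 13, 1365 without array 16, 1677 without array 441 and 1087 without array 445. The 2202 higher became 357, 865, 1260 and 782 in the same order, and the list counts given below without an array stand beside these falls. Without a test, 2971 genes (17.1%) had all 3 UV arrays below all 3 arrays of control week 1 and 3261 genes (18.7%) had them above.

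Krt77, a keratin made by differentiated cells of the resting epidermis, had the largest fall among all genes called. It lay at 12.09, 12.94 and 12.66 on the control arrays and at 5.54, 6.28 and 7.13 on the UV arrays. The arrays were thus far apart, with a log2 change of -6.24 (SE 0.73, adjusted p = 0.00015). Against control week 8, whose arrays read 13.14, 13.22 and 12.92, the change was -6.78, and all 6 unexposed arrays lay above all 3 UV arrays. On the arrays with a beta-actin ratio of at most 4 it was -6.52.

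Cd207, which encodes langerin of Langerhans cells, fell from 8.73, 8.90 and 9.02 to 6.76, 6.76 and 7.39 (log2 change -1.91, SE 0.26, adjusted p = 0.000707). Tesc, which encodes the calcium-binding protein tescalcin, fell from 9.04, 9.02 and 8.99 to 6.55, 6.5 and 7.73 (-2.09, SE 0.32, adjusted p = 0.0015). Both passed against control week 8 as well, with changes of -1.78 and -2.40. Gadl1, an enzyme of the decarboxylase family, fell by 2.47 and Sema3d, a secreted guidance protein, fell by 2.00. Sema3d had the smallest SE of this group (0.23) and an adjusted p of 0.000145, and its 3 UV arrays were at 6.83, 7.36 and 7.49 against 8.93, 9.41 and 9.35. Clca3a2 changed by -2.26, Fcgbp, an Fc-binding mucin-like protein, by -2.21, and Orm1, an acute phase protein, by -2.15. Pcolce2, an enhancer of procollagen processing, changed by -2.04. Syne2, a protein of the nuclear envelope, changed by -1.96 with an adjusted p of 0.0262. Its call was lost without array 13, 16, 441 or 445 (adjusted p up to 0.123), and its other 2 probe sets changed by 0.30 and 0.20.

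Among called genes whose arrays did not overlap control week 1, the 2 largest rises were in genes with little signal in unexposed skin. Akr1d1, a steroid 5-beta-reductase, read 3.04, 3.56 and 3.0 on the control arrays and 8.87, 7.43 and 5.69 on the UV arrays (4.13, SE 0.64, adjusted p = 0.00161). Tmprss11a, a membrane-bound serine protease of squamous epithelia, read 3.64, 3.83 and 3.76 against 8.96, 7.64 and 5.64 (3.67, SE 0.68, adjusted p = 0.00445). In both genes the 3 mice of week 6 differed widely, array 441 being the highest and array 445 the lowest, and each of them was above every unexposed array. Tacr3, a tachykinin receptor, was the most even of this group, with 5.80, 5.35 and 5.54 against 7.88, 7.92 and 8.09 (2.40, SE 0.23, adjusted p = 3.43e-05). The weaker of its other 2 probe sets changed by 0.92 (adjusted p = 0.0173) and the stronger by 0.26 (adjusted p = 0.258).

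Nmu, which encodes the neuropeptide neuromedin U, rose by 2.43 (SE 0.34, adjusted p = 0.000825) and Tcf23, a transcription factor, by 2.35 (SE 0.30, adjusted p = 0.000374). Spink12, a serine protease inhibitor, rose by 2.62 and Stfa2l1, of the stefin family of cysteine protease inhibitors, by 2.47. Reg1 rose by 2.58 and Ms4a4c, a membrane protein of leukocytes, by 2.38, but both lost the call without control array 13 (adjusted p = 0.0708 and 0.0617). The tenth was Krt6b, a keratin described with its family below. All 20 genes with the largest changes, 10 in each direction, also passed the test against control week 8. The plot of the largest changes shows each array.

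**Figure D1:**
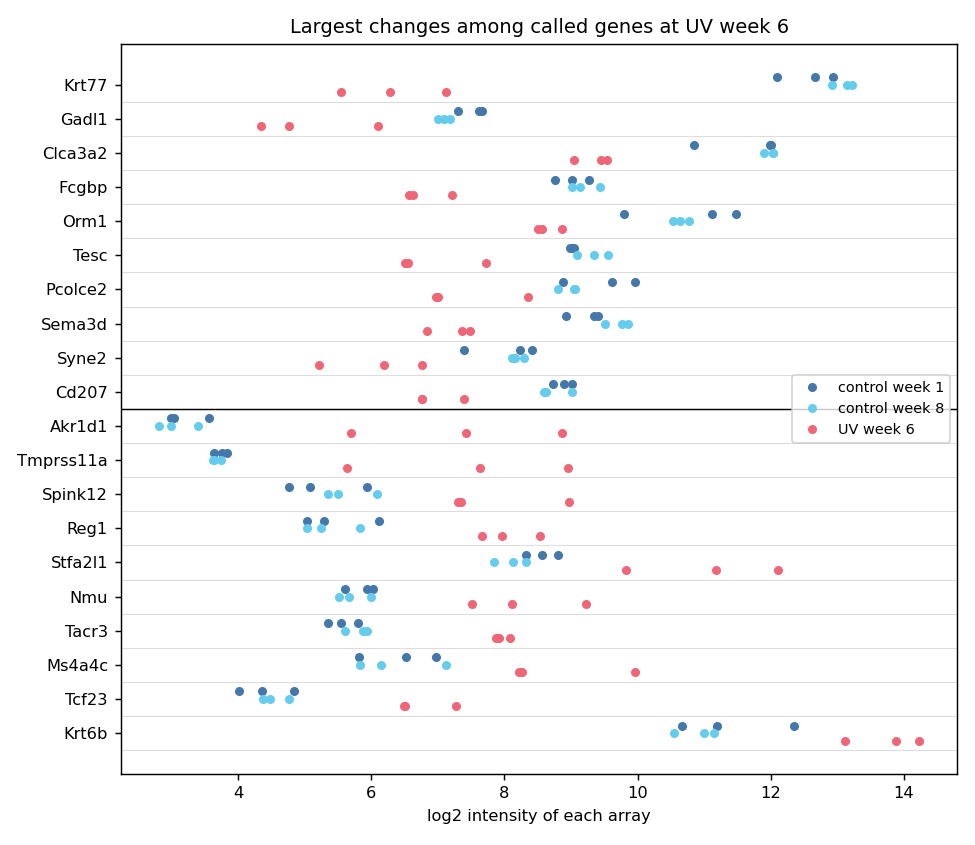
Log2 intensity (horizontal axis) of the 10 called genes with the largest falls (upper block) and the 10 with the largest rises (lower block), 1 point per array, for control week 1, control week 8 and UV week 6. Only genes whose 3 UV points lay beyond the 3 of control week 1 were eligible, so that separation was set by the choice. Calls also required control groups less than 1.5-fold apart. In each gene the UV points lie beyond those of control week 8 as well. Krt77 spans from 12.09 or more down to 7.13 or less.

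Most keratins of the epidermis did not pass the test. Of 10 keratins of resting epidermis, 3 were lower (Krt77, Krt15 and Krt2) and none was higher, and 1 was lower without array 13. Krt15, a keratin of basal and bulge stem cells, fell from 10.76, 11.75 and 11.50 to 9.30, 10.07 and 9.38 (-1.75, SE 0.41, adjusted p = 0.0144), and lost the call without array 13 or 445 (adjusted p up to 0.0857). Krt2 changed by -0.87 at a signal of 4.31 or less, and lost the call without array 13 or 16 (adjusted p up to 0.0633). The abundant keratins did not pass the test. Krt14 changed by -0.17, Krt10 by 0.04 and Krt1 by 0.19, and Krt5 by -1.21 (adjusted p = 0.178), with UV arrays from 10.43 to 12.18.

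Keratins and small proline-rich proteins of wounded and thickened epidermis moved unevenly, with 3 of 11 measured genes higher and none lower. Krt6b rose from 11.19, 12.35 and 10.67 to 14.23, 13.88 and 13.11 (2.34, SE 0.52, adjusted p = 0.0112). Sprr2d, a cornified envelope precursor, rose by 1.54 (SE 0.28, adjusted p = 0.00345) and Sprr2h by 1.21 (adjusted p = 0.0239, lost without array 16 or 441, up to 0.0921). Other genes of the list did not follow. Krt6a, the closest relative of Krt6b, changed by 0.01 (adjusted p = 0.985) and Krt16, their usual partner, by 0.46 (adjusted p = 0.709). Krt17 changed by -1.32 (adjusted p = 0.0803). Because Krt6a and Krt6b are near-identical in sequence, probes may share signal between them.

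The cornified envelope, the protein shell of the outermost cells, showed rises in the late cornified envelope family. Of 26 measured genes 8 were higher and 1 was lower, and against control week 8 the counts were 10 and 1. Lce1g rose from 6.56, 7.06 and 6.74 to 9.02, 8.60 and 8.71 (1.99, SE 0.21, adjusted p = 9.43e-05). Lce1f and Lce1c, already abundant, rose by 0.63 (SE 0.11) and 0.73 (SE 0.16). Lce1m moved the other way, from 11.29, 11.68 and 11.39 to 9.68, 10.08 and 10.36 (-1.41, SE 0.23, adjusted p = 0.00194). The members of this family are similar in sequence and their probe sets may share signal. Rptn, which encodes repetin, rose from 9.73, 10.99 and 10.20 to 13.39, 13.00 and 11.75 (2.41, SE 0.54, adjusted p = 0.0117). The classical envelope proteins did not pass, with Flg at 0.24, Lor at -0.16 and Ivl at 0.70 (adjusted p = 0.14), although a dimmer probe set of Lor rose by 1.45 (adjusted p = 0.0123). Without array 13 the list had 5 genes higher, and on the arrays with a beta-actin ratio of at most 4 it had 1.

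Proteases of the outer epidermis and their inhibitors were higher in part. Of 27 measured genes 10 were higher and none was lower, with a median log2 change of 0.68 against 0.04 for all genes. The count was 10 against control week 8 and between 10 and 12 without any single array of the comparison. Wfdc12, an antimicrobial protease inhibitor, read 9.03, 9.80 and 9.46 on the control arrays and 13.05, 12.74 and 11.97 on the UV arrays (3.16, SE 0.41, adjusted p = 0.000431). Its signal was lower at control week 8 (7.32, 7.60 and 7.97), so the change against that group was 4.96. As the 2 control groups differed by -1.80, it was left out of the calls.

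Klk13, a kallikrein protease, rose from 8.96, 9.47 and 8.74 to 11.79, 11.20 and 10.69 (2.17, SE 0.33, adjusted p = 0.00144). Tmprss11d, a relative of Tmprss11a, rose by 1.22 (SE 0.20) from a signal near 3.26. Among the inhibitors Stfa3 rose by 0.94 (SE 0.15, adjusted p = 0.00161) and Spink5, the inhibitor lost in Netherton syndrome, by 0.68 (SE 0.12, adjusted p = 0.00302). The kallikreins best known for shedding of the cornified layer, Klk5 and Klk7, changed by 0.27 and -0.16 and did not pass. Defb1, a beta-defensin of epithelia from the list of antimicrobial genes, rose from 9.96, 9.81 and 9.58 to 11.67, 11.24 and 11.01 (1.52, SE 0.21, adjusted p = 0.000707). Saa3, an acute phase protein of the same list, changed by 1.25 (adjusted p = 0.0539). Of the 16 measured genes of that list 1 was higher and 2 were lower (median -0.03), beside 5.29% and 7.65% of all genes.

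Among 18 transcription factors of epidermal differentiation 4 were lower and 1 was higher, beside 7.65% lower and 5.29% higher among all genes. Trp63, the master regulator of stratified epithelia, fell from 10.53 on both control arrays 13 and 16 to 9.49, 9.51 and 9.16, with control array 12 in between (-0.97, SE 0.22, adjusted p = 0.0121), with the call lost without array 13 or 445 (adjusted p up to 0.0718). Lmo4, a LIM-domain protein, fell from 8.23, 9.10 and 8.79 to 7.12, 7.60 and 6.55 (-1.62, SE 0.29, adjusted p = 0.00341). Klf4, which is needed for the skin barrier, changed by -1.10 (adjusted p = 0.148). Without array 13 the list had 1 gene lower and without array 16 or 445 it had 2. None of the 21 measured genes of desmosomes and other junctions passed in either direction.

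**Figure D2:**
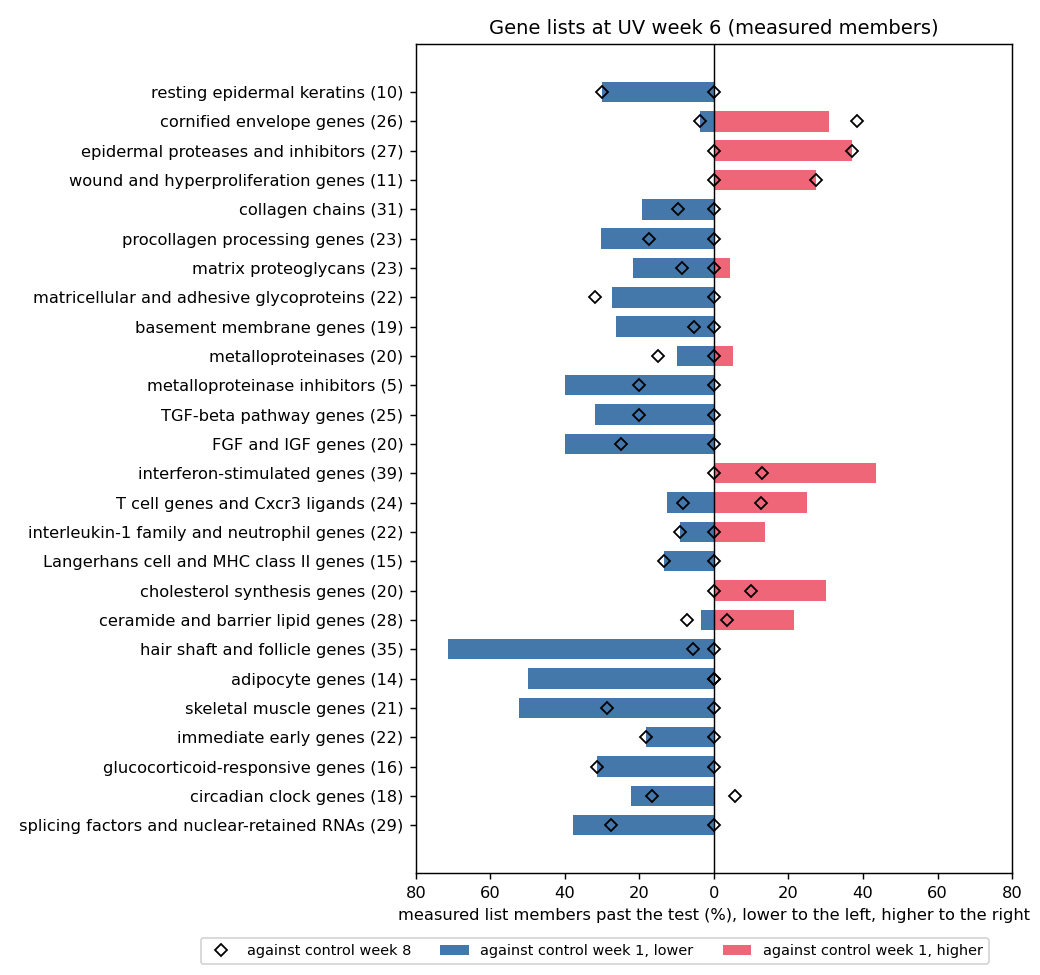
Share of the measured members of 26 gene lists past the test at UV week 6 (horizontal axis, percent, number of measured members in brackets), lower to the left and higher to the right, as bars against control week 1 and as diamonds against control week 8. Hair shaft and adipocyte genes have long bars but diamonds near 0, whereas proteases and their inhibitors have bar and diamond at the same place.

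A part of the genes of the dermal matrix was lower at week 6 in several lists. The changes were about 2-fold in most named members, which were mostly picked for a small adjusted p. The list medians were smaller, from -0.31 for proteoglycans to -0.57 for adhesive and matricellular glycoproteins. Of 31 collagen chains 6 were lower and none higher (median -0.34). Col4a1, a chain of basement membrane collagen, fell from 11.21, 11.54 and 11.11 to 9.96, 10.05 and 9.75 (-1.36, SE 0.19, adjusted p = 0.000926). Its partner Col4a2 fell by 1.15 (SE 0.19, adjusted p = 0.00262). Against control week 8 these changes were -0.60 (adjusted p = 0.0665) and -0.57 (adjusted p = 0.0778). Col4a1 read 10.89, 10.31 and 10.37 at control week 8 and Col4a2 read 10.04, 9.77 and 9.66. No collagen chain passed the test between the 2 control groups. Col15a1 changed by -0.78 and passed against both controls. Of the fibrillar collagens, Col1a2 read 13.78, 13.75 and 13.68 against 13.32, 12.99 and 12.07 (-0.94, SE 0.25, adjusted p = 0.0243), and Col3a1 changed by -0.40 (adjusted p = 0.0517), or by -0.82 at a dimmer probe set (adjusted p = 0.0369).

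Col1a1 changed by -1.67 (SE 0.47, adjusted p = 0.0313), with array 445 the lowest at 9.05, but a second probe set of the gene changed by -0.31 (adjusted p = 0.342). Col6a1 changed by -0.87. The calls of Col1a1, Col1a2 and Col6a1 were lost without array 13 or 445, with adjusted p values up to 0.154, 0.119 and 0.0685, and those of Col1a1 and Col1a2 also without array 16. The list then had 3 collagens lower without array 13 or 445, and 2 on the arrays with a beta-actin ratio of at most 4. With control week 8 it had 3.

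Of 23 genes of procollagen folding and processing 7 were lower and none higher (median -0.53). Sparc, a collagen-binding protein, fell from 13.24, 13.32 and 13.26 to 12.30, 12.14 and 11.47 (-1.30, SE 0.25, adjusted p = 0.00511). Serpinh1, the collagen chaperone of the endoplasmic reticulum, fell from 10.50, 10.68 and 10.51 to 9.73, 9.47 and 8.96 (-1.17, SE 0.24, adjusted p = 0.00703). P4ha1, a prolyl hydroxylase subunit, changed by -1.05 and lost the call without array 13 or 445 (adjusted p up to 0.0896). Pcolce2 fell by 2.04, as given above. In the same list 4 genes were lower against control week 8, Serpinh1 among them (-0.87, adjusted p = 0.0398), and Sparc changed by -0.76 (adjusted p = 0.0679). Without array 13, and likewise without array 445, 3 genes of the list were lower.

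Among adhesive and matricellular glycoproteins 6 of 22 measured genes were lower (median -0.57), and 7 were lower against control week 8. Fn1, which encodes fibronectin, read 12.26, 12.47 and 12.71 against 11.43, 11.67 and 11.24 (-1.03, SE 0.21, adjusted p = 0.00645). Ccdc80 read 12.06, 12.47 and 12.39 against 11.55, 11.28 and 10.99 (-1.04, SE 0.18, adjusted p = 0.00262). Both passed against control week 8, with changes of -0.84 and -0.68. A dimmer probe set of Ccdc80 changed by 0.06 (adjusted p = 0.841). Smoc2, a secreted calcium-binding protein, changed by -1.18 (without array 13 the adjusted p was 0.0535). Thbs1, which encodes thrombospondin, changed by -1.58 with overlapping groups, since control array 12 lay at 6.25 and UV array 443 at 6.62, and lost the call without array 13, 16, 441 or 445 (adjusted p up to 0.158). The count for the list was 2 without array 13 and 3 without array 16 or 445.

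Of 23 proteoglycans and related genes 5 were lower and 1 was higher, and 2 were lower against control week 8. Prelp, a leucine-rich proteoglycan, fell from 8.91, 9.87 and 9.49 to 8.47, 8.60 and 8.09 (-1.03, SE 0.19, adjusted p = 0.00455). Tgfbr3, the TGF-beta co-receptor betaglycan, fell by 1.4 (SE 0.31, adjusted p = 0.0114), with the call lost without array 13 or 445 (adjusted p up to 0.0785). A dimmer probe set of Tgfbr3 changed by 0.27 (adjusted p = 0.321). Lum, which encodes lumican, was at the edge of the test (-1.24, SE 0.40, adjusted p = 0.0495), array 443 at 11.93 equalled the lowest control array, and the call was lost without array 13, 16, 441 or 445 (adjusted p up to 0.231). None of these 3 genes passed against control week 8, with changes of -0.57, -0.96 and -1.32. Dcn, which encodes decorin, changed by -1.57 (adjusted p = 0.0845), and a dimmer probe set of it by -0.73 (adjusted p = 0.0078). The list had 1 gene lower without array 13 and 2 without array 445.

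Of 19 basement membrane genes 5 were lower and none higher, against 1 with control week 8 as the baseline. This count was 1 without array 13 or array 445 and 2 without array 16 or array 441. Elastic fibre genes had 2 of 15 lower and 1 higher, and none lower without array 13, 16 or 441. Among all genes 7.65% were lower and 5.29% higher.

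Enzymes that degrade the matrix did not move as a group. Of 20 metalloproteinases 2 were lower and 1 was higher, beside 7.65% lower and 5.29% higher among all genes. Adamts5, an aggrecan-cleaving enzyme, fell from 10.48, 10.71 and 10.89 to 9.48, 9.74 and 9.42 (-1.15, SE 0.18, adjusted p = 0.00187). Of its other probe sets 1 changed by -1.18 (adjusted p = 0.00201) and another by 0.19 (adjusted p = 0.595). Adamts1, of the same family, changed by -0.89 (adjusted p = 0.0127, and 0.0581 without array 13). Mmp3, or stromelysin 1, rose from 8.62, 8.70 and 9.71 to 10.28, 10.65 and 9.79 (1.23, SE 0.37, adjusted p = 0.0391), but lost the call without array 12, 13, 441 or 443 (adjusted p up to 0.167).

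Mmp3 lay at 10.04, 9.97 and 9.94 at control week 8, and the change against that group was 0.26 (adjusted p = 0.654). Mmp13, an interstitial collagenase, read 5.84, 6.39 and 7.26 against 8.02, 7.39 and 6.94 (0.95, adjusted p = 0.0901). The arrays of control week 8 were higher still, at 9.36, 8.84 and 8.40, so that Mmp13 at UV week 6 was lower than in the older unexposed skin (-1.42, adjusted p = 0.0319). Mmp9, a gelatinase, changed by -0.11. Of the 5 inhibitors measured Timp3 and Reck were lower, but neither without array 13, 16 or 445. Timp3 changed by -1.59 (SE 0.41, adjusted p = 0.021), lost the call without array 13, 16 or 445 (adjusted p up to 0.112), and its next 2 probe sets changed by 0.11 and -0.94 (adjusted p = 0.762 and 0.0606). Timp1 changed by -0.37.

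**Figure D3:**
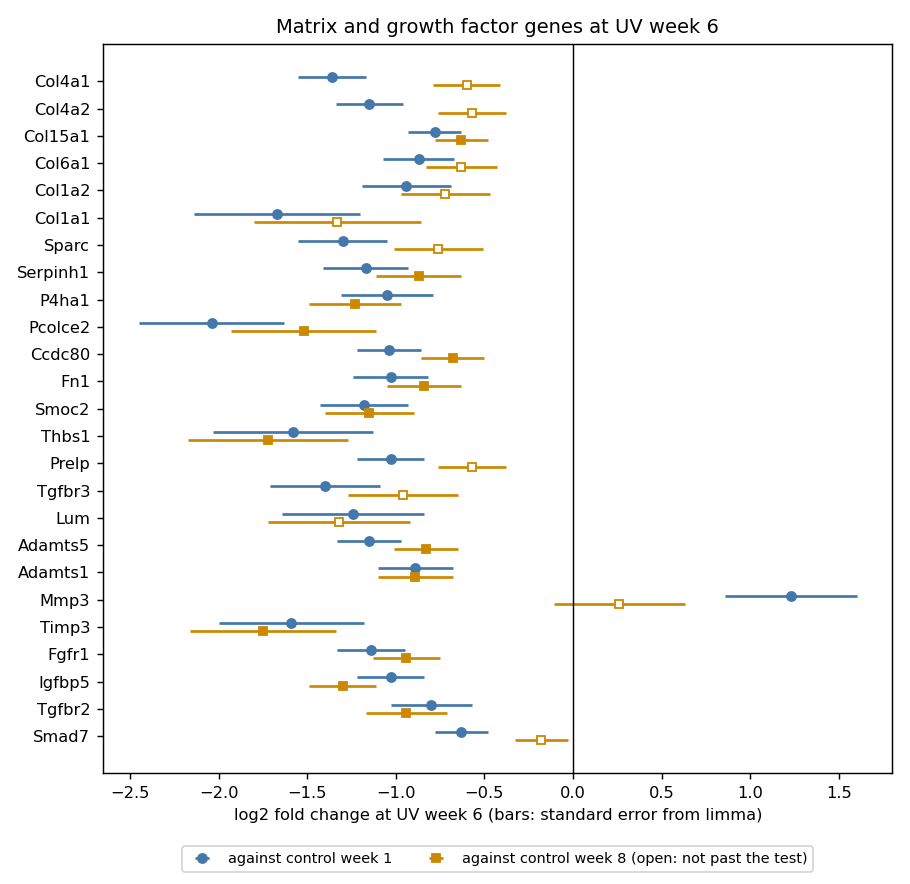
Log2 fold change (horizontal axis) of 25 matrix and growth factor genes at UV week 6 against control week 1 (circles) and control week 8 (squares, open where not past the test), with the standard error from limma as bars. The 25 genes were picked from those past the test after their values were seen, so their shared direction was set by the choice. In the whole lists, 22 of 31 collagen chains and 13 of 20 FGF and IGF genes were below 0. The circles of all plotted genes but Mmp3 lie left of 0, and the squares of Col4a1, Col4a2 and Smad7 lie closer to 0 than their circles.

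Some receptors and binding proteins of growth factors were lower in the same skin. Of 20 FGF and IGF genes 8 were lower and none higher (median -0.63), and 5 were lower against control week 8, also the count left without array 13. Fgfr1, the main FGF receptor of fibroblasts, fell from 9.21, 9.76 and 9.49 to 8.37, 8.58 and 8.11 (-1.14, SE 0.19, adjusted p = 0.00266), although a weaker probe set changed by 0.01. Igfbp5, an IGF-binding protein, fell from 10.91, 11.30 and 11.29 to 10.31, 10.17 and 9.92 (-1.03, SE 0.19, adjusted p = 0.00369), with a change of -1.30 against control week 8. A second, dimmer probe set of Igfbp5 rose by 0.56 (adjusted p = 0.0173). Igfbp4 changed by -0.95 (SE 0.17, adjusted p = 0.00352) and Igf1 by -0.60 (adjusted p = 0.175). Of the other 3 probe sets of Igf1, 1 passed (-1.33, adjusted p = 0.0136) and the others changed by 0.04 and -0.24.

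Of 25 TGF-beta pathway genes 8 were lower and none higher, and 5 were lower against control week 8. Tgfbr2, the type 2 receptor, fell from 12.55, 12.47 and 12.47 to 12.04, 11.81 and 11.23 (-0.80, SE 0.23, adjusted p = 0.0307). Smad7, an inhibitor of the pathway, changed by -0.63 (SE 0.15, adjusted p = 0.0134), and Tgif1, a transcriptional repressor of TGF-beta responses, by -1.14 (SE 0.27, adjusted p = 0.016). A dimmer probe set of Smad7 changed by 0.35 (adjusted p = 0.304). The ligand Tgfb1 and the type 1 receptor Tgfbr1 changed by -0.56 and -0.02 and did not pass. The list had 1 gene lower without array 13, 16 or 445 and 5 without array 441. The calls of Tgfbr2 and Tgif1 were among those lost (adjusted p up to 0.148 and 0.0896), and Tgfbr2 also lost it without array 12.

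Interferon-stimulated genes were higher at week 6. Interferons bind receptors that activate STAT and IRF transcription factors, which bind the interferon-stimulated response element in the promoters of these genes. Its core is commonly written as a pair of GAAA blocks, 2 bases apart. This motif (GAAA, any 2 bases, GAAA, read on both strands) was searched in the 250 bases before the transcription start in RefSeq promoters of GRCm38.p6, of which 936 of 27025 held it (3.46%). Of the 39 interferon-stimulated genes measured 27 matched a promoter, and 13 of those held the motif (48.1%). A list of interferon-stimulated genes is chosen for this pathway, so its share above that of all promoters was set by the choice. The motif was present in 8 of 12 promoters of genes that were higher at UV week 6 (66.7%) and in 5 of 15 of those that did not pass (33.3%). The difference between these 2 shares was not tested. The stretches around the motifs of Cxcl10 and Ifit1 show the element in 2 of the genes that rose most. They are printed 5′ to 3′ on the strand of the gene, with the motif in capitals, GAAA or its reverse complement TTTC at each end. That of Cxcl10 lies on the minus strand at chr5:92349053-92349139, with its motif 203 bases upstream of the start, and that of Ifit1 on the plus strand at chr19:34640745-34640853, with 2 motifs, the nearer 75 bases upstream.
Cxcl10: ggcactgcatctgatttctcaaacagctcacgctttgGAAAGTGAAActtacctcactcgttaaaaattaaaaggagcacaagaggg
Ifit1: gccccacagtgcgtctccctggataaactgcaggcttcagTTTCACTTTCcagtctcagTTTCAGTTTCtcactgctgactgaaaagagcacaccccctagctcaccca

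Of the 39 genes 17 were higher and none was lower at UV week 6, with a median log2 change of 0.60. Against control week 8, 5 were higher and the median was 0.38. No gene of the list passed the test between the 2 control groups, with a median of 0.23 at control week 8 against control week 1. Cxcl10, a chemokine that attracts T cells through Cxcr3, rose from 5.05, 4.75 and 6.10 to 7.60, 7.02 and 7.33 (2.02, SE 0.28, adjusted p = 0.000855). At control week 8 it read 5.80, 6.12 and 5.82, below every array of week 6, and the change was 1.4 (adjusted p = 0.0112). Ifih1, the cytosolic sensor of double-stranded RNA also called MDA5, rose from 9.09, 8.92 and 9.01 to 10.50, 9.95 and 10.22 (1.22, SE 0.22, adjusted p = 0.00345). Ifi35 rose by 1.05 (SE 0.18, adjusted p = 0.00282) and Rtp4 by 1.60 (SE 0.32, adjusted p = 0.0061). The other probe sets of Ifi35 changed by 0.38 and -0.15 and that of Rtp4 by 0.27, and none of these passed.

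Ifit1, an inhibitor of viral translation, rose from 6.17, 5.35 and 6.16 to 8.79, 7.15 and 7.83 (2.03, SE 0.44, adjusted p = 0.00953, and 0.0661 without array 13). Of these, Cxcl10, Ifi35 and Ifih1 passed also against control week 8, while Rtp4 and Ifit1 changed by 1.05 (adjusted p = 0.0544) and 1.45 (adjusted p = 0.0546) there. The number of interferon-stimulated genes past the test was 4 without array 13, 8 without array 441 and 11 without array 12, and array 441 had the highest mean of the list, 1.08 above control week 1 against 0.63 and 0.60 for the other two. On the arrays with a beta-actin ratio of at most 4 it was 4. Ifng, the type 2 interferon itself, read 2.93, 2.93 and 3.02 against 4.05, 3.06 and 3.66 (0.63, adjusted p = 0.0592).

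The other ligands of Cxcr3 were higher too. Cxcl9 rose from 6.63, 5.90 and 7.02 to 8.86, 8.57 and 8.47 (2.11, SE 0.45, adjusted p = 0.00901, and 0.0642 without array 13), and Cxcl11 from 5.69, 5.58 and 6.27 to 8.35, 8.02 and 7.26 (2.03, SE 0.35, adjusted p = 0.00282). Both passed against control week 8, at 1.79 and 1.70. The genes of T cells themselves went in both directions, so that the list of 24 had 6 higher and 3 lower. Cd8a rose by 0.46 (adjusted p = 0.0173, lost without array 13 or 445, up to 0.091). Cd3g, a chain of the T cell receptor complex, fell from 6.75, 6.82 and 7.0 to 6.35, 5.26 and 5.65 (-1.10, SE 0.25, adjusted p = 0.0119), and Cd3e, its partner chain, changed by -0.27. Without array 13 the list had 1 gene higher and 2 lower, and without array 445 it had 2 and 1.

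Genes of other immune cells changed singly, beside 7.65% lower and 5.29% higher among all genes. Besides Cd207, H2-Ab1, an MHC class II chain, fell from 11.44, 11.55 and 11.68 to 10.17, 10.84 and 10.80 (-0.95, SE 0.29, adjusted p = 0.0412), and lost the call without array 12, 13, 16, 441 or 445 (adjusted p up to 0.139). These were 2 of 15 genes of Langerhans cells and MHC class II, with none higher, and 1 was lower without array 13, 16, 441 or 445. The summed signal of the list lay between 13.73 and 13.94 on the control arrays and between 12.99 and 13.41 on the UV arrays (log2 of the summed intensities). Of 25 macrophage genes 2 were higher, and Lst1 rose from 8.71, 7.80 and 8.45 to 10.10, 9.67 and 9.63 (1.48, SE 0.30, adjusted p = 0.00631). The count was 1 without array 13 or 441.

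In the list of interleukin-1 family and neutrophil genes 2 of 22 were lower and 3 higher, beside 7.65% and 5.29% of all genes. Ptgs2, the inducible cyclooxygenase, fell from 5.88, 6.10 and 5.84 to 4.13, 3.89 and 3.88 (-1.98, SE 0.37, adjusted p = 0.00465), and Il1r2, the decoy receptor of interleukin-1, from 9.82, 10.37 and 10.35 to 9.15, 8.93 and 8.69 (-1.26, SE 0.17, adjusted p = 0.000614). Both passed against control week 8 as well. A dimmer probe set of Ptgs2 changed by 0.13 (adjusted p = 0.63). Il18 rose by 1.01 (lost without array 12 or 441, adjusted p up to 0.0762) and Il1a by 0.69 (lost without array 13, 16 or 441, up to 0.141), and neither passed against control week 8. Il1b changed by 0.29. The list had 1 gene higher without array 12, 13 or 16 and none without array 441. None of 12 genes of the MHC class I pathway passed.

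Genes of lipid synthesis were higher in part against control week 1. Of 20 genes of cholesterol synthesis 6 were higher and none lower (median 0.31). Against control week 8 it was 2 (median -0.03), beside 2.52% higher and 4.48% lower among all genes. Hsd17b7, an enzyme of cholesterol and estrogen synthesis, rose from 10.59, 10.50 and 10.64 to 11.53, 11.95 and 12.32 (1.35, SE 0.20, adjusted p = 0.00117). Stard4, a cholesterol transporter, rose from 7.29, 7.29 and 7.24 to 8.57, 8.05 and 8.22 (1.01, SE 0.18, adjusted p = 0.00339). These were the 2 genes that passed against both controls, at 0.89 and 0.80 for control week 8, but their probe sets disagreed. The other 3 of Hsd17b7 changed by -0.23, 0.73 and 0.44, of which the second passed (adjusted p = 0.02), and the other 2 of Stard4 by 0.07 and -0.77, of which neither passed. Insig1, which holds SREBP in the endoplasmic reticulum, rose by 0.91 and Lss, lanosterol synthase, by 0.88, but only by 0.23 and 0.34 against control week 8, where neither passed, and Lss lost the call without array 445 (adjusted p = 0.0575). The count was 4 without array 13 or 16 and 3 without array 445.

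Of 28 genes of ceramides and other barrier lipids 6 were higher and 1 was lower (median 0.22). Against control week 8 it was 1 and 2 (median -0.15), beside 2.52% higher and 4.48% lower among all genes. Degs2, the enzyme that makes phytoceramides, rose from 6.25, 6.48 and 5.58 to 7.92, 7.68 and 7.66 (1.65, SE 0.27, adjusted p = 0.00213), and by 1.70 against control week 8. Elovl7, a fatty acid elongase, rose by 0.83 and Acer1, the ceramidase of the epidermis, by 0.88, and neither passed against control week 8. The second probe set of Acer1 changed by -0.39 (adjusted p = 0.729). Sgms1, a sphingomyelin synthase, fell from 10.53, 10.91 and 10.85 to 10.25, 9.99 and 10.30 (-0.59, SE 0.12, adjusted p = 0.007, and 0.0509 without array 13). Without array 13 the list had 3 genes higher and none lower, and without array 12 it had 3 lower. No gene of the 14 sebaceous gland genes passed.

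Hair, fat and muscle genes had the largest shares of members past the test. Of 35 genes of the hair shaft and follicle 25 were lower and none higher (median -2.09). Krt72, a keratin of the inner root sheath, fell from 9.43, 9.12 and 8.98 to 5.88, 7.19 and 6.03 (-2.81, SE 0.30, adjusted p = 8.89e-05). Krt86, of the hair cortex, fell from 9.46, 9.21 and 8.92 to 5.94, 6.95 and 6.33 (-2.79, SE 0.59, adjusted p = 0.00884). S100a3, a calcium-binding protein of the hair cuticle, fell from 8.77, 8.72 and 8.56 to 5.61, 6.28 and 5.32 (-2.95, SE 0.51, adjusted p = 0.00282). Krt75 changed by -2.44, Krt81 by -2.11 and Krt83 by -1.79.

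The unexposed skin of week 8 was low in hair genes as well. At control week 8 Krt72 read 7.02, 7.39 and 7.91 and Krt86 read 6.59, 7.75 and 7.75, and 2 of the 35 genes were lower at UV week 6 than there, Krt72 with a change of -1.08 (adjusted p = 0.0389) and Tesc with -2.40 (adjusted p = 0.000708). Krt86 changed by -0.96 (adjusted p = 0.291), S100a3 by -1.36 (adjusted p = 0.101), Krt75 by -0.67, Krt81 by -0.50 and Krt83 by -0.32. On the scale of the mean over the hair shaft and follicle genes, taken relative to control week 1, the arrays of control week 8 lay at -1.72 to -1.05 and those of UV week 6 at -1.97 to -1.57. The count against control week 1 was between 15 and 20 when 1 array was left out, 15 of them without array 13, and 7 on the arrays with a beta-actin ratio of at most 4.

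Of 14 adipocyte genes 7 were lower than at control week 1 (median -1.02) and none passed against control week 8 (median -0.33). The difference between these counts was not tested. Fabp4, the fatty acid carrier of fat cells, fell from 13.74, 13.80 and 13.79 to 13.02, 13.10 and 13.01 (-0.74, SE 0.14, adjusted p = 0.00512), with -0.28 against control week 8 (adjusted p = 0.204) and -0.36 at its next probe set. Lep, which encodes leptin, fell from 8.42, 8.33 and 8.19 to 4.96, 6.44 and 7.07 (-2.16, SE 0.42, adjusted p = 0.00578), against 7.02, 7.13 and 7.36 at control week 8 (-1.01, adjusted p = 0.132). Pck1, an enzyme of glycerol synthesis in fat, fell by 1.54 (adjusted p = 0.00846, and 0.0565 without array 13) and changed by 0.06 against control week 8 (adjusted p = 0.917). Adipoq, which encodes adiponectin, changed by -1.09 and lost the call without array 13, 16, 441 or 445 (adjusted p up to 0.109). The summed signal of the list was 15.12 to 15.63 at control week 1 and 14.66 to 14.90 at UV week 6. The count was 2 without array 13, 3 without array 441 and 4 without array 16 or 445, and 11 without array 12.

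Skeletal muscle genes, which come from the muscle sheet below the dermis, were lower against both controls in part. Of 21 measured 11 were lower than at control week 1 and 6 than at control week 8, and none was higher. Myl1, a myosin light chain, fell from 13.46, 13.69 and 13.39 to 12.04, 11.78 and 11.93 (-1.60, SE 0.25, adjusted p = 0.00167), with a change of -1.15 against control week 8 (adjusted p = 0.0164). Mylpf, another light chain, changed by -1.0 and Tnni2, of troponin, by -1.10, each losing the call without array 13 (adjusted p = 0.0624 and 0.0781). A second probe set of Tnni2 changed by -0.28 (adjusted p = 0.383). The summed signal of the list was 16.83 to 17.14 at control week 1 and 16.06 to 16.29 at UV week 6. The count was 1 without array 13 and 5 without array 441 or 443. The part of the depth or composition of the sampled skin in these values was not tested.

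**Figure D4:**
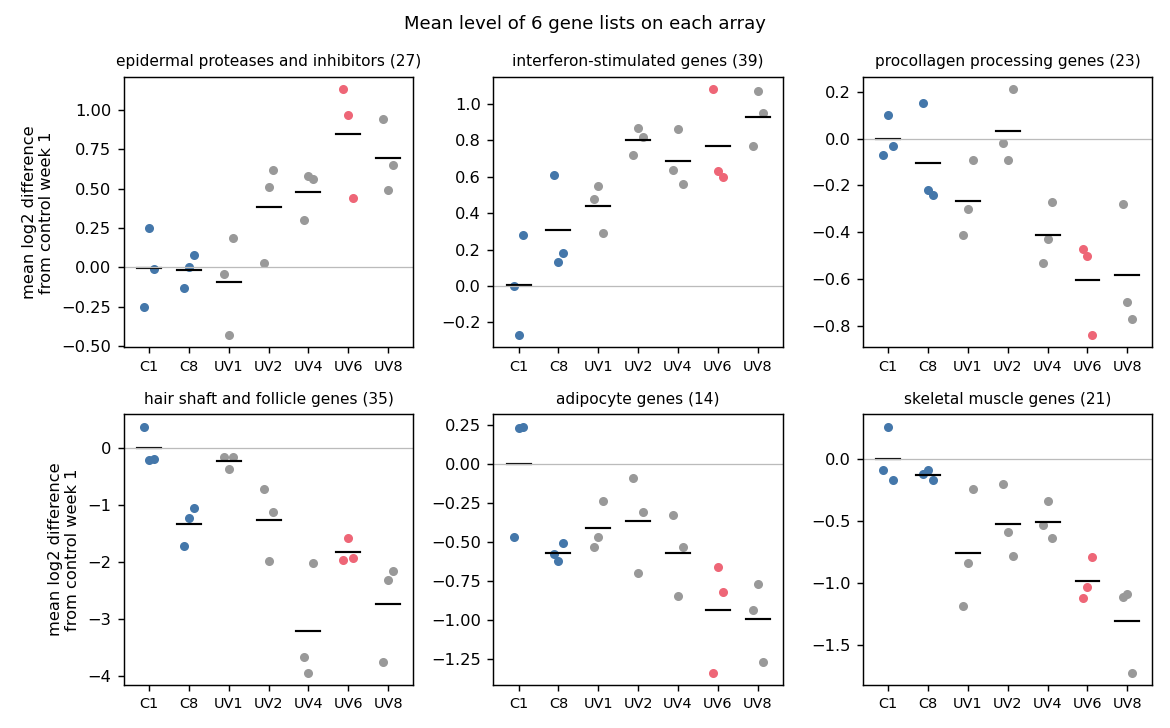
Mean log2 level of the measured members of 6 gene lists on each array (vertical axis, relative to the mean of control week 1, number of genes in brackets), for control weeks 1 and 8 (C1, C8) and UV weeks 1 to 8, with UV week 6 in red and the group mean as a line. The epidermal proteases and inhibitors lie near 0 in both controls and between 0.44 and 1.13 at UV week 6, whereas the hair shaft and follicle genes lie between -1.72 and -1.05 in control week 8 and the adipocyte genes between -0.62 and -0.51.

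Of 22 immediate early genes 4 were lower and none higher, and 4 were lower against control week 8. Jun, a subunit of AP-1, fell from 8.86, 9.22 and 8.98 to 7.79, 8.21 and 8.19 (-0.96, SE 0.20, adjusted p = 0.00779, and 0.0531 without array 13). Egr1 fell from 11.17, 11.78 and 11.85 to 9.51, 10.08 and 11.02 (-1.39, SE 0.30, adjusted p = 0.00966, and 0.0565 without array 13). Fos changed by -1.18 (adjusted p = 0.0549), array 445 being at 12.32 and the others at 11.03 and 10.89. The list had 1 gene lower without array 13, and 2 without array 16 or 441.

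Of 16 glucocorticoid-responsive genes 5 were lower, the same count as against control week 8, and none was higher. Tsc22d3, also called Gilz, fell from 9.84, 10.79 and 10.41 to 8.70, 9.27 and 8.99 (-1.36, SE 0.24, adjusted p = 0.00345). Mt2, a metallothionein, fell from 12.97, 13.03 and 12.59 to 11.38, 11.36 and 11.76 (-1.36, SE 0.22, adjusted p = 0.00186). Nr3c1, the glucocorticoid receptor, changed by -0.54 and lost the call without array 13, 16, 441, 443 or 445 (adjusted p up to 0.122). The count was 2 without array 13, 441 or 445 and 3 without array 16.

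Of 18 circadian clock genes 4 were lower and none higher. Nfil3, a repressor of the clock output, fell from 7.16, 7.38 and 6.89 to 5.79, 5.96 and 5.47 (-1.41, SE 0.23, adjusted p = 0.00188) and passed against control week 8 (-1.06). Per2 changed by -1.20 (adjusted p = 0.00938, and 0.0697 without array 13) but by -0.31 against control week 8, and 1 of its other probe sets rose by 0.53 (adjusted p = 0.0305). The count was 1 without array 13 and 2 without array 16, 441 or 445. The hour of sampling is not given in the sources used here.

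Gsto1, a glutathione transferase, was among the genes with the smallest adjusted p of any list. It rose from 10.99, 10.97 and 10.93 to 12.98, 12.72 and 12.32 (1.71, SE 0.17, adjusted p = 3.93e-05), by 1.68 against control week 8, and by 1.06 at its second probe set (adjusted p = 0.0248). Within the list of 27 antioxidant and glutathione genes 5 were lower and 2 higher (2 and 1 without array 13, and 3 lower without array 16 or 445). Of 21 p53 target genes 2 were higher and 1 was lower, of 19 genes of nucleotide excision and base repair 2 were lower, and of 33 cell cycle genes 3 were lower and 1 higher. Without array 13 none of the repair or cell cycle genes passed, and the background is the 7.65% lower and 5.29% higher among all genes.

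Of 22 genes of the amino acid starvation response 5 were higher and 3 lower. Psat1, of serine synthesis, rose from 9.98, 9.99 and 9.94 to 10.81, 11.04 and 10.82 (0.92, SE 0.17, adjusted p = 0.00377), with 0.38 at its second probe set (adjusted p = 0.324). Slc3a2, the heavy chain of amino acid transporters, fell from 10.74, 10.74 and 10.55 to 9.63, 9.94 and 9.71 (-0.92, SE 0.19, adjusted p = 0.00878), but did not pass against control week 8 (-0.57). Without array 13 the list had 2 genes higher and 2 lower, and without array 16 it had 2 and 3. Without array 445 it had 3 and 2.

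Splicing factors and nuclear-retained RNAs were lower in 11 of 29 measured genes and higher in none, and 8 were lower against control week 8. Son, a protein of nuclear speckles, fell from 10.92, 10.82 and 10.16 to 9.38, 9.37 and 9.35 (-1.27, SE 0.23, adjusted p = 0.00396), although 1 of its other probe sets changed by 0.24. Rsrp1 fell from 11.65, 12.23 and 11.52 to 10.62, 10.75 and 10.51 (-1.17, SE 0.18, adjusted p = 0.00161), but did not pass against control week 8 (-0.58). Its other probe sets changed by -0.22 and -0.31 and did not pass. The long noncoding RNA Neat1 changed by -0.85 at its strongest probe set and by 0.55 at a dimmer one (adjusted p = 0.0193 and 0.0183), and lost the first call without array 13, 16 or 441 (adjusted p up to 0.104). Malat1, an abundant RNA of the nucleus, changed by 0.13, and 1 of its dim probe sets rose by 0.67 (adjusted p = 0.0118). The count for the list was 2 without array 13 or 16, 3 without array 445 and 5 without array 441.

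Of 30 Wnt pathway genes 7 were lower and none higher, with 3 lower against control week 8, 2 without array 13 and 4 without array 16, 441, 443 or 445. The background for these counts is again 7.65% of all genes lower and 5.29% higher. Of 16 steroid-metabolizing enzymes 3 were higher, Akr1d1 among them, and 1 against control week 8 or without array 16. Of 11 mast cell genes 2 were lower, of 14 smooth muscle genes 2, of 15 fibroblast genes 2 and of 16 Notch pathway genes 2, with none higher in these lists. Of 22 endothelial genes 2 were lower and 1 higher, and of 19 chaperones of the endoplasmic reticulum likewise 2 and 1. Of 12 genes of the EGF receptor family and its ligands 1 was lower and 1 higher. Of 13 Schwann and pigment cell genes 1 was lower, of 27 respiratory chain genes 1 was lower, and of 9 hyaluronan genes 1 was higher. Without array 13 no gene passed among the endothelial, fibroblast, Notch, chaperone, EGF, Schwann and pigment cell and respiratory chain genes.

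The step into the sixth week was then read against the neighbouring weeks. The control arrays do not enter these differences, but they share in the estimate of the spread, since all 21 arrays were fitted together. Compared with UV week 4, 2 of 17403 genes were lower at UV week 6 (0.0115%) and none was higher (0.0%), while 2220 and 2835 probe sets had an unadjusted p below 0.05 by limma. Cd207 was 1 of the 2, with 8.62, 8.95 and 8.70 at UV week 4 against 6.76, 6.76 and 7.39 at UV week 6 (-1.78, SE 0.26, adjusted p = 0.0399). At UV week 4 the gene lay within the range of the unexposed arrays (-0.13 against control week 1). It had been lower before, at 8.30, 7.87 and 7.81 in UV week 1 and at 8.38, 8.08 and 7.63 in UV week 2. These values lay below all unexposed arrays. Btg2, an antiproliferative p53 target, was the other, with 9.5, 9.01 and 9.20 against 8.26, 8.35 and 8.28 (-0.94, SE 0.13, adjusted p = 0.0335). UV week 4 held the highest Btg2 array of the series. The gene read 8.84, 9.10 and 8.93 at control week 1 and 8.53, 8.58 and 8.48 at control week 8. Among probe sets the count of those lower was 0 without array 331, 334 or 441 and 1 without array 333 or 443. It was also 0 in a fit to the 2 compared weeks alone and without the arrays of a beta-actin ratio above 4.

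Compared with UV week 6, no gene was lower (0.0%) or higher (0.0%) at UV week 8, with 877 and 915 probe sets at an unadjusted p below 0.05. Leaving out array 551 of UV week 8 gave 6 probe sets lower and 15 higher. The values of the named genes stand side by side as follows, all against the shared control week 1. Krt77 changed by -3.53 at UV week 4, -6.24 at week 6 and -6.00 at week 8. Tmprss11a changed by 0.67, 3.67 and 3.09, and Cxcl10 by 1.87, 2.02 and 1.94. Col4a1 changed by -1.11, -1.36 and -1.28, and Krt86, of the hair cortex, by -4.27, -2.79 and -4.39. Cd207 changed by -0.13, -1.91 and -1.75. For Tmprss11a and Krt77 the difference between weeks 4 and 6 did not pass the test, and the spread between arrays of 1 week is seen in the plot of single genes by week.

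**Figure D5:**
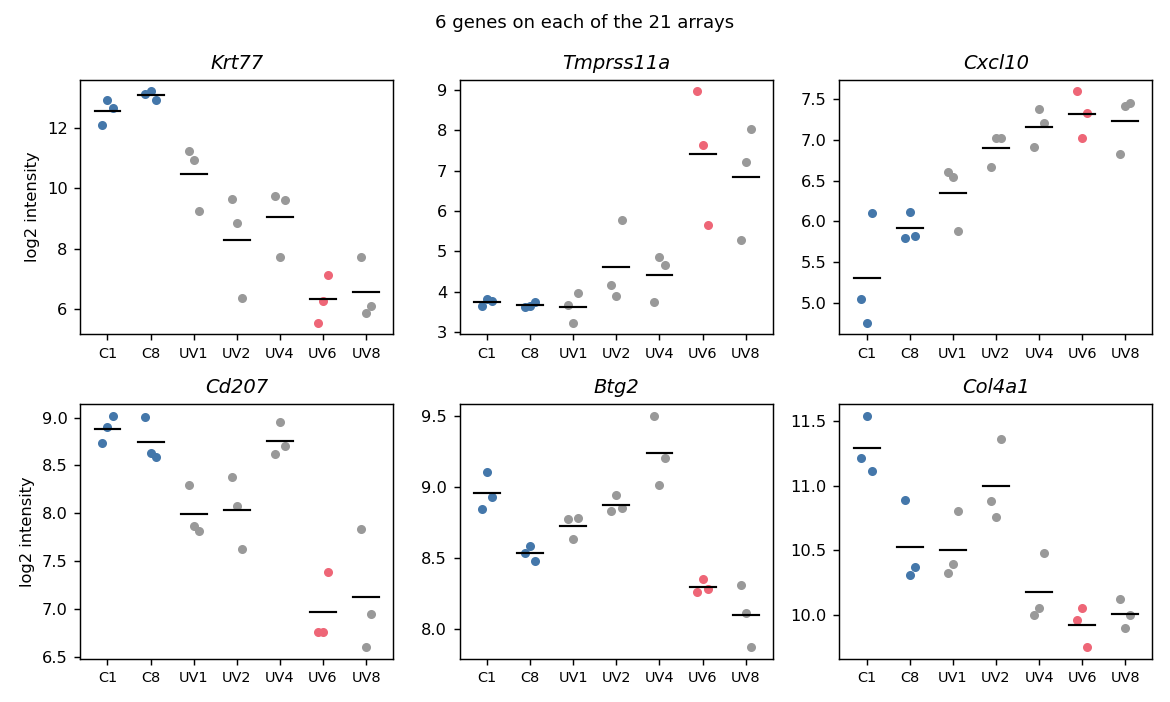
Log2 intensity (vertical axes, not starting at 0) of 6 genes on each of the 21 arrays, for control weeks 1 and 8 (C1, C8) and UV weeks 1 to 8, with UV week 6 in red and the group mean as a line. Cd207 and Btg2 are lower at UV week 6 than at UV week 4, at 7.39 and 8.35 or less. Cd207 is also below all unexposed arrays at UV weeks 1 and 2, at 8.38 or less, and the highest Btg2 array, at 9.5, is of UV week 4. Cxcl10 lies at 6.91 or above in all arrays of UV weeks 4 and 6.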

How the data were processed

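Dorsal skin RNA of 21 samples in 7 groups of 3 was measured on Affymetrix whole-genome mouse arrays. The authors deposited linear intensities per probe set. The submitters' processing notes name RMA, whereas a Microarray Suite preprocessor in Expression Console is given in the Methods, so the summarisation is not settled. The Methods count 1 group fewer than the labels.

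Intensities below 1 were set to 1 and log2 transformed, the 64 control probe sets were left out, and probe sets below the 20th percentile on every array were dropped. Of the 40540 probe sets kept, 32317 had 1 gene symbol in the platform annotation, 853 several and 7370 none. A linear model with empirical Bayes (limma 3.58.1, R 4.3.3) was fitted to all 21 arrays, with Benjamini-Hochberg adjustment over all probe sets, and was tested on simulated data. Python 3.11.15 with pandas 2.3.3, numpy 2.4.6 and matplotlib 3.10.9 made tables and figures. Calls needed 2-fold and an adjusted p of at most 0.05, without the 739 probe sets that differed 1.5-fold between controls.

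Members of 50 lists, with 996 measured genes, were counted at an adjusted p of at most 0.05. The genes, lists and comparison were chosen with earlier results of these data known. The rule for named genes took the 10 largest called changes each way, the first 3 genes of each list, up to 5 members per list with the smallest adjusted p, a short list of genes of interest, and the 5 largest changes each way against UV weeks 4 and 8. It gave 288 genes. Those printed were selected from these after their values were seen, and a few fall outside the rule. Alternatives were the filter, quantile normalization, log2 of the intensity plus 16, array weights, RNA ratios as covariates, other baselines and samples, and leaving out each array. The number of arrays limits the precision, and p-values measure the spread between samples within groups, pooled over all 7 groups. Promoters came from RefSeq (GRCm38.p6).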

Additional observations from a re-analysis of the deposited data

Results flagged for a closer look

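Btg2 and Cd207 stood out because their level differed between weeks of exposure by a test of the difference itself. Between UV weeks 4 and 6, Btg2 changed by -0.94 on the log2 scale (adjusted p = 0.0335 by limma) and Cd207 by -1.78 (adjusted p = 0.0399). In each gene all 3 arrays of week 6 lay below all 3 of week 4. Cd207 also lay below all unexposed arrays at UV weeks 1 and 2, at 8.38 or less. The highest Btg2 array of the series, at 9.5, was of UV week 4. Against control week 8, Btg2 at UV week 6 did not pass (-0.24, adjusted p = 0.237), while Cd207 did (-1.78, adjusted p = 0.00166). Neither gene passed between these weeks in a fit to the 2 weeks alone, without the arrays of a beta-actin ratio above 4, or without array 331, 334 or 441, where the count of probe sets lower was 0.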

How the results depend on the processing

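No paired analysis was possible because the array numbers in the labels are shared by no groups. The count of probe sets called down (620) became 362 with log2 of the intensity plus 16, 937 with array weights, 382 in a fit to the compared groups alone and 232 with 1 probe set per gene, and lay between 144 (without array 13) and 1000 (without array 12) when 1 array was left out. The count called up (176) became 101 with control week 8 as the baseline and 90 with 1 probe set per gene, and lay between 106 (without array 13) and 232. With no minimum fold, 2553 probe sets were lower, which became 4911 with array weights, 4063 with the Gapdh ratio as covariate, 993 in the compared groups alone and 1523 against control week 8, and 527 (without array 13) to 3054 with 1 array left out. The 2202 higher became 4930, 3547, 463 and 1065 under the same settings, 1170 without arrays of a beta-actin ratio above 4 and 3643 against the mean of both controls, and 357 (without array 13) to 2493 with 1 array left out.

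The 2 probe sets lower at UV week 6 than at UV week 4 became 1 with log2 of the intensity plus 16, 113 with array weights, 23 with the beta-actin and 5 with the Gapdh ratio as covariate, and 0 without arrays of a ratio above 4 or in the compared groups alone, and 0 to 3 with 1 array left out. The count higher, 0, became 76 with array weights, 17 with the beta-actin ratio, 3 without arrays of a ratio above 4 and 1 in the compared groups alone, and 0 to 1 with 1 array left out. At UV week 8 against UV week 6 the counts of 0 lower and 0 higher became 4 and 1 without arrays of a ratio above 4, and 0 to 6 and 0 to 15 with 1 array left out, the highest without array 551. The direction turned for Pck1 (0.06) and Mmp13 (-1.42) with control week 8 as the baseline.

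Of 113 printed genes past the test, 76 passed whichever array was left out, and 34 of the other 37 failed without array 13. With control week 8 as the baseline 77 passed, in the compared groups alone 93, without arrays of a ratio above 4 (array 443 alone, whose variance was taken from the other groups) 86, and under the other settings 108 to 113. The cause was not tested. Signal over background limits Krt2 and other genes of low intensity.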
